A study of Caenorhabditis elegans with 10 samples.

Results

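The sites described here are 1409 places in the genome of the nematode C. elegans at which peaks of the transcription factors CEH-60, UNC-62 and PQM-1 lay together. They were selected on measured overlaps in lists from ChIP-seq, in which an antibody pulls a protein out of crosslinked chromatin and the DNA that comes with it is sequenced. A site is a nuclear peak of CEH-60 replicate 1 that shared 1 bp or more with a peak of CEH-60 replicate 2, with a peak of UNC-62 and with a peak of PQM-1. The sites were 15.6% of the 9008 nuclear peaks of CEH-60 replicate 1, and the study's 8 lists held 40986 peaks in all. That all 1409 sites have a peak in those 4 lists is therefore fixed by the choice and is no finding.

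All samples were whole animals at day 1 of adulthood, so the tissue in which a factor was bound cannot be told apart. The strain DLS395, ceh-60(rhd116), carries an HA tag at the worm's own ceh-60 gene and gave 2 libraries with the anti-HA antibody 3F10 (replicates 1 and 2) and 1 with the anti-HA antibody mIgG1. The strain DLS396, ceh-60(rhd116); gaIs285, carries that tag and an added unc-62 transgene, and gave 1 CEH-60 library with 3F10 and 1 UNC-62 library with the anti-GFP antibody 3E6. The strain OP201, unc-119(tm4063); wgIs201, gave 1 PQM-1 library with the anti-FLAG antibody M2, through a tagged pqm-1 transgene. The strain DLS422, ceh-60(ok1485); wgIs201, carries the same transgene with a ceh-60 deletion allele and gave 1 PQM-1 library with M2. The strain DLS435, pqm-1(ok485); ceh-60(rhd116), carries the tagged ceh-60 with a pqm-1 deletion allele and gave 1 CEH-60 library with 3F10. The UNC-62 and PQM-1 lists thus come from transgenes added to the genome. Replicate 1, mIgG1 and both DLS396 libraries were made with 2% formaldehyde over 30 min (protocol 1), and replicate 2, DLS435 and both PQM-1 libraries with 1% formaldehyde over 5 min (protocol 2). The choice of sites crosses the protocols, since it takes 2 lists from each.

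CEH-60 belongs to the PBX family of homeodomain proteins and UNC-62 to the MEIS family, and PBX and MEIS proteins are known to bind DNA as partners. PQM-1 is a zinc finger protein active in the intestine, the worm's organ of digestion, fat storage, innate defence and yolk production. In the adult hermaphrodite the intestine makes the vitellogenins, lipid-carrying yolk proteins that are secreted and taken up by the growing oocytes. CEH-60, UNC-62 and PQM-1 are each known to influence vitellogenin expression.

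Each peak in the deposited lists has a fold enrichment, the authors' ratio of the signal at the peak's summit to its local background, which is used here only within a list. The values in this paragraph describe the choice and were not tested. The sites had a median fold of 10.2 in CEH-60 replicate 1 (range 3.73 to 21.1), where all peaks of that list had a median of 4.52. In CEH-60 replicate 2 the medians were 2.67 at the sites and 2.34 in the list, in UNC-62 4.45 and 4.24, and in PQM-1 of OP201 3.03 and 2.38. The sites thus came from the strong end of the CEH-60 and PQM-1 lists, while their UNC-62 folds were near those of that whole list. They took in 76.3% of the 2051 nuclear UNC-62 peaks, with 68.03% in the quartile of lowest fold and 83.6% in that of highest. Of the 6001 PQM-1 peaks of OP201 they took in 27.4%, from 11.5% of the weakest quartile to 56.02% of the strongest. Of the 3430 CEH-60 replicate 2 peaks they took in 49.1%. The CEH-60 replicate 1 intervals of the sites were wide, with a median of 763 bp against 357 bp in the list.

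Near the limit of the rule, the smallest length shared between a site and its 3 partner peaks was 175 bp, at 50 sites, which is the narrowest width of a peak in those lists, and the median of that smallest shared length was 254 bp. Just outside the rule, a CEH-60 replicate 1 peak of 4.18-fold by rmh-2 (V:9926580-9926875) missed the nearest replicate 2 peak by 32 bp. A peak of 10.5-fold by F42A10.9 (III:6163310-6163869) missed the nearest PQM-1 peak by 71 bp. Where a site and each partner had to share 50% of both intervals, 180 sites were left.

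The strongest site lay at the ceh-60 gene itself (X:6530224-6531647). Its fold was 21.1 in CEH-60 replicate 1, 4.47 in replicate 2, 19.5 with mIgG1, 33.41 in DLS396 and 13.04 in the UNC-62 list, and PQM-1 had 3.96 in OP201 and 2.89 in DLS422, with 3.59 for CEH-60 in DLS435. All 8 lists had a peak there, and the UNC-62 and PQM-1 summits lay 29 and 33 bp from that of CEH-60. The DLS422 peak lay there although that strain carries a ceh-60 deletion allele, and the extent of the deletion was not used here. The ttr-45 gene, which encodes a transthyretin-like protein, had a site (IV:13253256-13254575) of 19.9-fold in replicate 1, 3.80 in replicate 2, 20.0 with mIgG1, 31.7 in DLS396 and 16.5 in the UNC-62 list, with PQM-1 at 3.18 in OP201 and 3.21 in DLS422, and 3.30 for CEH-60 in DLS435. It too was present in all 8 lists. The site between the homeobox gene ceh-99 and the chemoreceptor gene srh-70 (II:12517719-12519804) reached 19.03-fold in replicate 1, 17.7 for UNC-62, and PQM-1 had 3.52 in OP201 and 2.36 in DLS422. The other sites of highest CEH-60 fold with a gene at hand lay by vit-2, ttll-9 (a tubulin ligase-like protein), Y40H7A.10, nssp-75, fbxl-5 (an F-box protein), abu-8 and vit-1, with replicate 1 folds of 18.6 to 20.99.

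The unc-62 gene had a site as well (V:4496227-4496737), with a fold of 6.396 in CEH-60 replicate 1, 2.06 in replicate 2, 2.50 for PQM-1 in OP201 and 2.40 in DLS422. Its folds in the strain with the added unc-62 transgene were 18.5 for CEH-60 and 21.03 for UNC-62, from peaks 26170 and 32132 bp wide. That UNC-62 fold was the highest of any site, and its summit lay 4995 bp from that of CEH-60. The part of the transgene's own DNA in these peaks was not tested. No site lay at an end of pqm-1.

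Of the 8 lists, 4 played no part in the choice: CEH-60 with mIgG1, CEH-60 in DLS396, PQM-1 in DLS422 and CEH-60 in DLS435. A site is said to keep a factor where that list has a peak sharing 1 bp or more with the CEH-60 replicate 1 interval. A missing peak means that none passed the authors' threshold in that library, and it does not show that the factor was absent. With mIgG1, 97.7% of the sites had a peak (95% Wilson interval 96.7 to 98.3, 1376 of 1409 sites), beside 45.3% of all CEH-60 replicate 1 peaks. In DLS396, 100% of the sites had a CEH-60 peak (99.7 to 100, 1409 of 1409), beside 89.9% of all CEH-60 replicate 1 peaks. Both libraries share protocol 1 with replicate 1 and UNC-62. Among other CEH-60 peaks found in both replicates, those with PQM-1 and no UNC-62 peak (1172) had a mIgG1 peak at 57.3%, those with UNC-62 and no PQM-1 peak (135) at 97.8%, and those with neither (295) at 82.7%. The sites' high share with mIgG1 was thus close to that of the CEH-60 and UNC-62 sites lacking PQM-1 (93.7 to 99.2). In DLS396, which also gave the UNC-62 list, CEH-60 peaks lay at 98.8% of those lacking UNC-62, 100% of those lacking PQM-1 and 96.6% of those with neither. The sites' share there was thus not particular to them. These classes also differed in CEH-60 replicate 1 fold. Its median was 10.2 at the sites, 10.7 at those lacking PQM-1, 6.02 at those lacking UNC-62 and 7.19 at those with neither. The part of peak strength in the mIgG1 shares was not tested.

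PQM-1 was kept without ceh-60 at most of the sites. In DLS422, 87.0% of the sites had a PQM-1 peak (85.2 to 88.7, 1226 of 1409), and 183 did not. The background was 42.4% of all CEH-60 replicate 1 peaks and 67.9% of all PQM-1 peaks of OP201. The 67.9% was counted on the OP201 intervals, with a median of 339 bp. The sites' share was counted on CEH-60 intervals, with a median of 763 bp, so these 2 measures differ. At CEH-60 and PQM-1 sites lacking UNC-62 the share was 87.9%, and the sites with all 3 factors differed from it by -0.87 percentage points (95% interval -3.42 to 1.72), an interval that includes 0. The CEH-60 intervals of these classes also differed in width, with medians of 763 and 465 bp, and the part of width was not tested. The difference in share moved with the settings. It was -3.56 points (-6.30 to -0.76) with only peaks of −log10 q of 5 or more, -3.32 points (-6.38 to -0.21) with summits within 200 bp in place of overlaps, and 12.1 points (9.64 to 14.5) where the rule left out replicate 2.

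The strength of the PQM-1 peak went with whether it was kept. Sites that kept PQM-1 had a median OP201 fold of 3.13 and those that did not had 2.37, while their median CEH-60 replicate 1 folds were 10.1 and 11.005 and their UNC-62 folds 4.37 and 5.06. Within quartiles of OP201 fold, cut over both classes, the sites with UNC-62 kept PQM-1 less often than those without it in the lower 3 quartiles. In the weakest quartile the shares were 59.2% with UNC-62 and 69.4% without, a difference of -10.2 points (-17.5 to -2.76). They were 83.3% and 91.8% in the next (-13.8 to -3.49 for the difference), 96.6% and 99.6% in the third (-5.36 to -0.75), and 99.1% and 99.5% in the strongest (-1.89 to 1.88). All these intervals cover counting error over sites in 1 library per strain, so there is no replicate check.

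**Figure D1:**
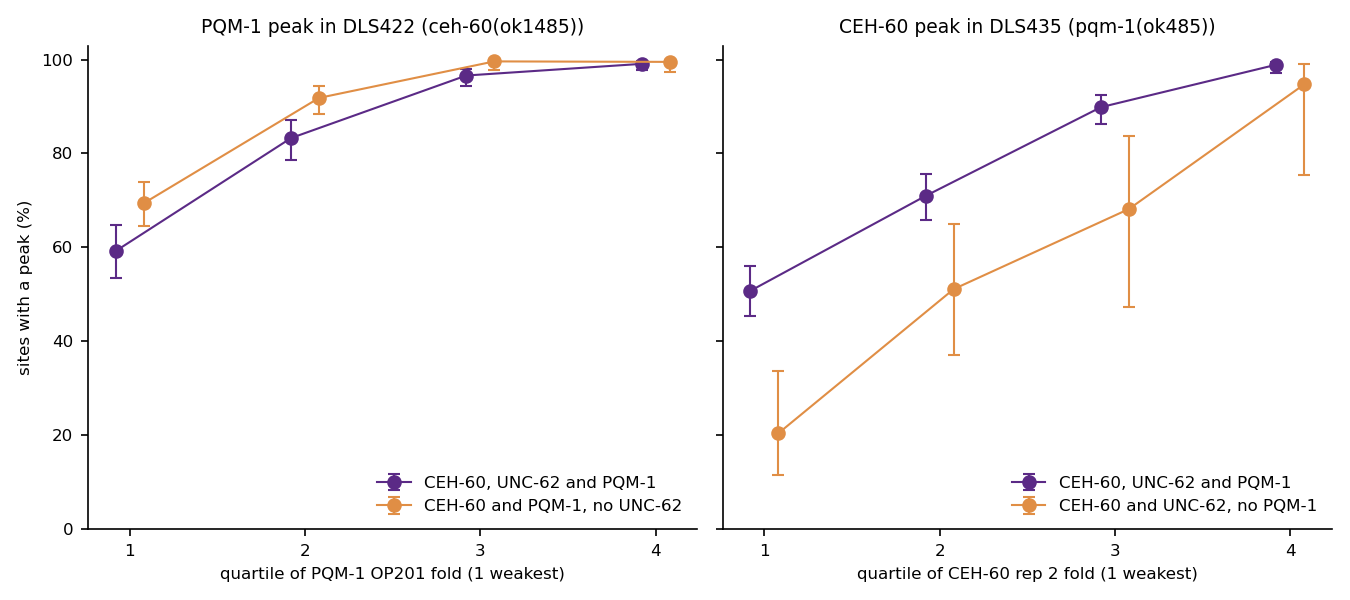
Share of sites (%, vertical axis) with a PQM-1 peak in DLS422 by quartile of PQM-1 OP201 fold (left) and with a CEH-60 peak in DLS435 by quartile of CEH-60 replicate 2 fold (right). Points are shares and bars are 95% Wilson intervals over sites; on the left the sites of all 3 factors start at 59.2% and those lacking UNC-62 at 69.4%, and on the right the sites of all 3 factors start at 50.7% and those lacking PQM-1 at 20.4%.

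Strong CEH-60 binding did not go with keeping PQM-1. By deciles of CEH-60 replicate 1 fold, the share that kept PQM-1 was 82.3 to 90.8% in the lower 9 deciles and 75.9% in the strongest (68.2 to 82.2, 34 of 141 sites without a peak). The median OP201 fold of that strongest decile was 3.03, the same as over all sites. The share was lower in each quartile of OP201 fold when the quartile of sites with the strongest CEH-60 was set against the rest. In the weakest quartile 56.5% and 64.6% kept PQM-1, with an interval of -20.01 to 3.56 points for the difference. In the next quartile the shares were 83.5% and 90.3% (-16.5 to 0.89), in the third 94.3% and 98.5% (-11.2 to -0.19) and in the strongest 98.9% and 99.6% (-5.41 to 1.303). The interval excluded 0 in the third quartile alone. Both this split and the deciles were chosen after values had been seen.

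The vitellogenin genes were part of that group. All 6 had a site, and none of those sites had a PQM-1 peak in DLS422, beside 10.3% of the 929 genes with a site that had no site with such a peak. At vit-2 (X:5100143-5103079) the fold was 20.99 in CEH-60 replicate 1, 2.79 in replicate 2, 21.1 with mIgG1, 31.5 in DLS396 and 13.3 in the UNC-62 list, with PQM-1 at 2.58 in OP201 and 2.23 for CEH-60 in DLS435, with no peak in DLS422. At vit-1 (X:7727127-7730066) the folds in the same order were 18.6, 3.26, 13.7, 25.5, 9.50, 2.94 and 2.51, again with no peak in DLS422. Both genes thus had peaks in 7 of the 8 lists and lacked the same one.

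At vit-6 (IV:8260559-8266977) replicate 1 had 17.2-fold, UNC-62 12.01, PQM-1 in OP201 2.79 and CEH-60 in DLS435 2.56, and the OP201 summit lay 2084 bp from that of CEH-60. At vit-5 (X:3402795-3405198) these values were 17.1, 11.8, 3.03 and 3.69. At vit-3 (X:3572255-3573275) they were 16.97, 12.7, 2.13 and 2.02, and at vit-4 (X:3563860-3565263) 16.3, 9.19, 2.75 and 2.53. The strongest vitellogenin sites thus all held CEH-60 in DLS435, while their OP201 folds lay below or at the sites' median of 3.03. Since vit-3, vit-4 and vit-5 resemble each other nearly base for base, they do not count as separate loci. A second, weaker site at vit-2 (X:5104813-5107193, 6.34-fold in replicate 1 and 2.37-fold for PQM-1) had a peak in neither DLS422 nor DLS435.

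Around the vitellogenin genes, some neighbouring sites kept PQM-1 and others did not. A site by the saposin-like gene spp-14 (X:7725299-7726912), 1968 bp from the vit-1 summit, had a PQM-1 fold of 3.31 in OP201 and 2.99 in DLS422. A site by the choline kinase gene ckc-1 (X:3576007-3577038), 3713 bp from the vit-3 summit, had 4.73 in OP201 and 5.06 in DLS422. Near vit-4, the site by rgs-7, a regulator of G protein signalling (X:3556994-3559019), 6505 bp away, had 2.43 in OP201 and 2.50 in DLS422. Near vit-2, a site 6724 bp away with no gene at hand (X:5093747-5094654, 16.3-fold in replicate 1) had 2.20 in OP201 and no peak in DLS422. Other sites near vit-2 kept PQM-1, by C42D8.1 (8409 bp away, 3.11 in OP201 and 2.09 in DLS422) and ets-5 (15486 bp, 2.26 and 2.53). No other site lay within 20 kb of the summits at vit-5 and vit-6.

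**Figure D2:**
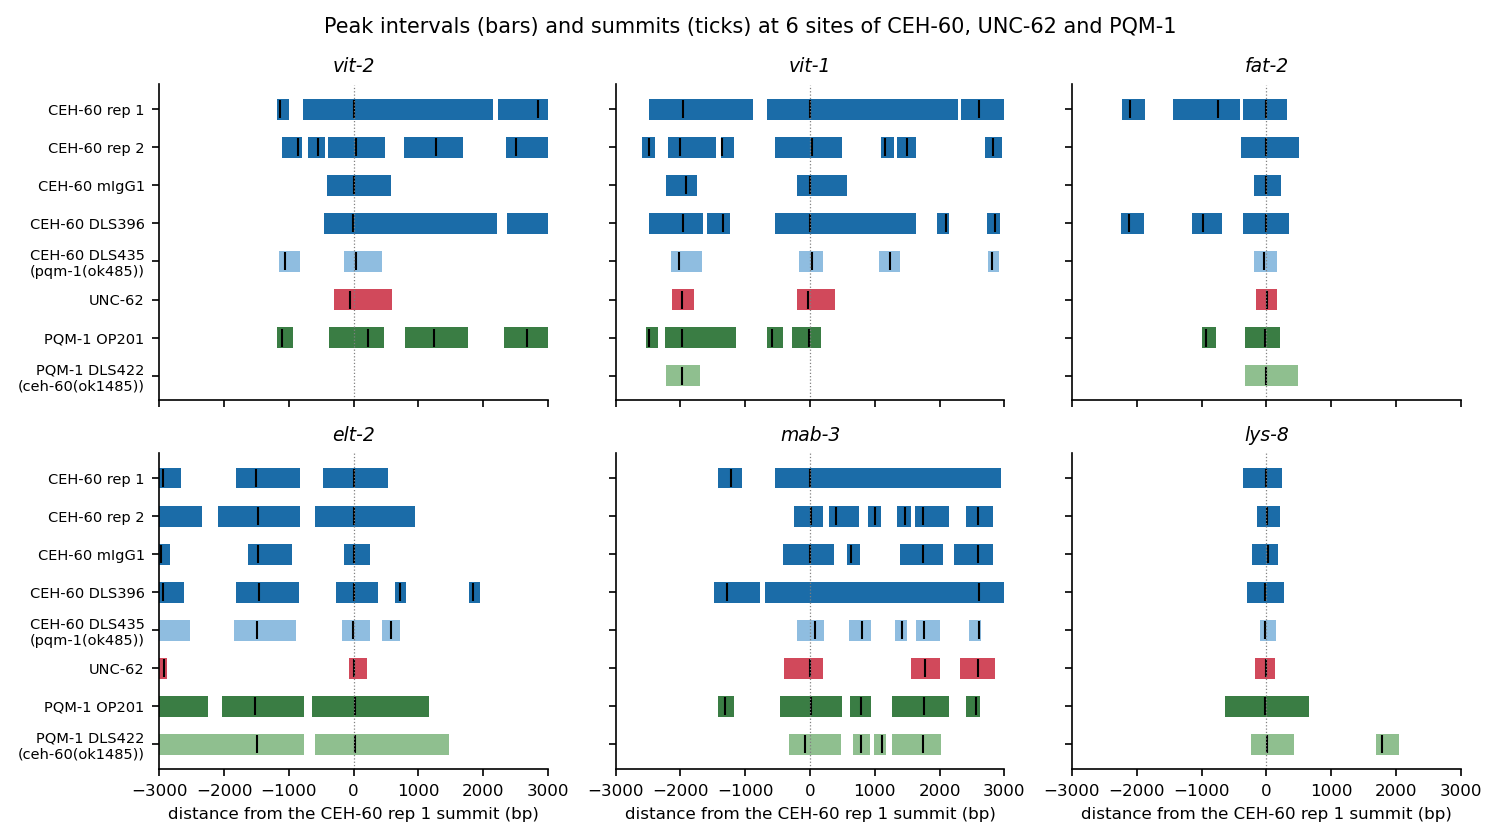
Peak intervals (bars) and summits (ticks) of the 8 lists at sites by vit-2, vit-1, fat-2, elt-2, mab-3 and lys-8, against the distance from the CEH-60 replicate 1 summit in bp, drawn to 3000 bp on each side. At vit-2 and vit-1 the DLS422 row is empty at the centre, with a DLS422 summit at -1979 bp at vit-1, and at the other 4 loci the row has a peak at the centre.

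Other strong sites lacked a PQM-1 peak in DLS422. Of the 20 sites of highest CEH-60 replicate 1 fold, 7 lacked it, of which 2 were vitellogenin sites. At ttll-9 (V:20909415-20910364) the fold was 20.4 in replicate 1, 3.86 in replicate 2, 11.1 for UNC-62, 2.64 in the OP201 list and 2.99 for CEH-60 in DLS435. At fbxl-5 (V:7747634-7748973) these values were 19.5, 3.03, 10.9, 1.69 and 2.99. Among all sites without a DLS422 peak and with a gene at hand, the PQM-1 fold of OP201 was highest at Y40H7A.10 (IV:15215283-15216066), where it was 3.75, with 20.3 in replicate 1 and 3.40 for CEH-60 in DLS435. It was followed by gldi-3 (3.48), nsy-1, a kinase of the p38 defence pathway (3.16), C06H5.6 (3.10), vit-5, dod-6 (3.03), pha-2, a homeobox factor of the pharynx (2.96), and vit-1. Of these, gldi-3, nsy-1 and dod-6 also lacked CEH-60 in DLS435.

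A group picked after its values were seen, the sites of highest CEH-60 fold without a DLS422 peak, also held dhs-26, a short-chain dehydrogenase (17.5-fold in replicate 1, 2.75 for PQM-1), clec-179, a C-type lectin (16.445 and 2.93), and eef-1G, a translation elongation factor (15.8 and 2.67). For the 183 sites without a DLS422 peak, the nearest such peak lay a median of 6974 bp away, 19 had one within 500 bp and 102 had none within 5000 bp.

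Among sites with a gene at hand, those of highest PQM-1 fold that kept PQM-1 were led by srz-62, a chemoreceptor gene (IV:3899754-3900394). Its fold was 15.1 in CEH-60 replicate 1, 5.15 in replicate 2, 9.71 with mIgG1, 21.4 in DLS396 and 6.26 in the UNC-62 list, with PQM-1 at 6.65 in OP201 and 5.59 in DLS422 and 4.23 for CEH-60 in DLS435. The fold of 6.65 was the highest in the OP201 list, and the site was present in all 8 lists. Next came oatr-1, an ornithine aminotransferase (5.47 in OP201 and 5.46 in DLS422), scav-6, a scavenger receptor (5.42 and 5.14), Y75B8A.28 (5.33 and 5.12) and pgp-1, a P-glycoprotein transporter (5.09 and 4.68). B0507.3, fbxc-50 and cpr-3, a cathepsin B-like protease, followed with 4.88 to 5.09 in OP201 and 4.09 to 4.88 in DLS422.

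**Figure D3:**
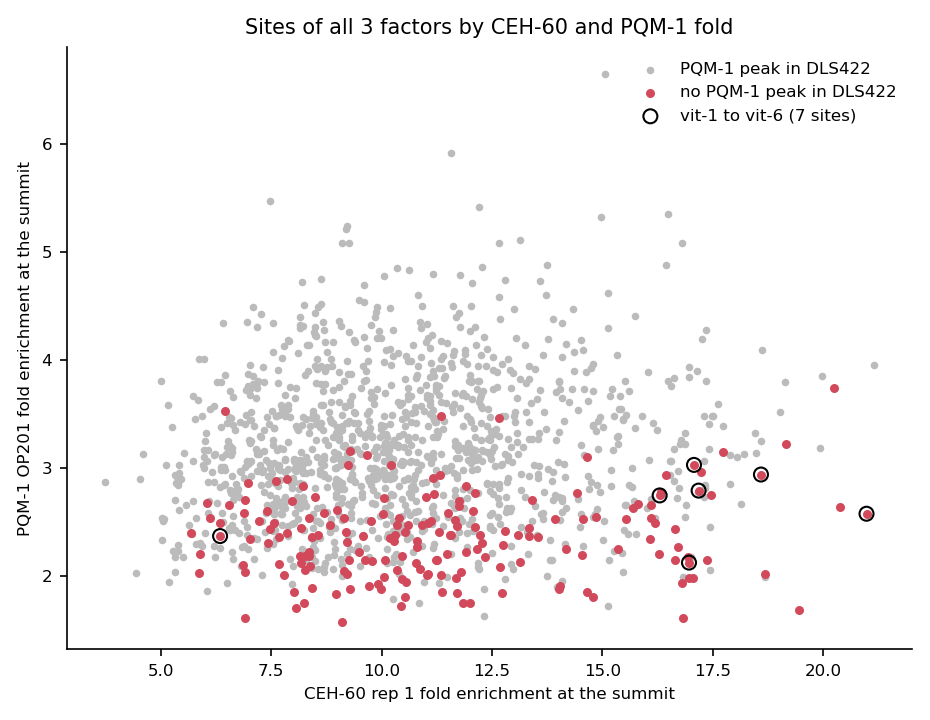
PQM-1 fold in OP201 (vertical axis) against CEH-60 replicate 1 fold (horizontal axis), both as the authors' fold enrichment at the summit, for the 1409 sites. Grey points have a PQM-1 peak in DLS422, red points (183) do not, and circles mark the vitellogenin sites, all red, of which the strongest reaches 20.99 for CEH-60 at 2.58 for PQM-1.

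CEH-60 was kept without pqm-1 at 78.3% of the sites (76.1 to 80.4, 1103 of 1409), and 306 had no peak in DLS435. That list is shorter as a whole, with 2048 peaks against 3430 in replicate 2, while the PQM-1 lists held 5020 in DLS422 and 6001 in OP201, and the part of list length in these shares was not tested. The background was 19.3% of all CEH-60 replicate 1 peaks and 52.2% of all CEH-60 replicate 2 peaks. The 52.2% was counted on the replicate 2 intervals, with a median of 310 bp, and not on those of replicate 1. CEH-60 and UNC-62 sites lacking PQM-1 kept it at 48.9% (40.6 to 57.2, 66 of 135), a difference of 29.4 points (20.8 to 37.9). CEH-60 and PQM-1 sites lacking UNC-62 kept it at 37.5%, a difference of 40.8 points (37.2 to 44.3), and CEH-60 sites with neither partner at 12.9%, a difference of 65.4 points (60.6 to 69.3). The sites of all 3 factors thus kept CEH-60 more often than each of the other classes. Their replicate 1 intervals were also the widest. The median was 763 bp, against 619 bp at sites lacking PQM-1, 465 bp at those lacking UNC-62 and 487 bp at those with neither. The part of width in these shares was not tested. The difference from sites lacking PQM-1 was 19.4 points (12.7 to 26.3) with summits within 200 bp in place of overlaps, and 43.4 points (37.5 to 48.7) where the rule left out replicate 2.

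Stronger sites kept CEH-60 more often. From the weakest to the strongest decile of CEH-60 replicate 1 fold, the share rose from 43.3% to 99.3%, and none of the 20 strongest sites lacked a DLS435 peak. Within quartiles of replicate 2 fold, the sites kept CEH-60 at 50.7, 71.0, 89.9 and 98.9%, and sites lacking PQM-1 at 20.4, 51.1, 68.2 and 94.7%. The interval of the difference excluded 0 in the lower 3 quartiles and not in the strongest (-0.47 to 23.6 points). Set against the sites with neither partner in the same way, the shares were 48.1, 69.3, 87.9 and 98.0% against 12.5, 8.64, 16.7 and 25%. Replicate 2, DLS435 and PQM-1 of OP201 share protocol 2, and replicate 2 and PQM-1 helped to choose the sites. Classes can thus differ in how close their peaks lie to the calling threshold within a quartile, which was not tested.

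Among sites with a gene at hand, those of highest replicate 2 fold that lacked CEH-60 in DLS435 were led by gldi-3 (II:9280100-9280938), with a fold of 11.3 in replicate 1, 3.78 in replicate 2, 7.198 for UNC-62 and 3.48 in the OP201 list, and no peak in either deletion strain. They went on with C06B3.6 (3.13 in replicate 2), hsd-2, a hydroxysteroid dehydrogenase (3.10), F43C11.7 (3.07), F27E5.9 (3.05), ifas-3 (2.99), elp-1 (2.99) and ugt-64, a glucuronosyltransferase (2.98). Of these 8 sites, gldi-3, ifas-3 and elp-1 also lacked PQM-1 in DLS422, and the rest kept it with folds of 2.18 to 3.79.

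Taking both deletion strains together, 984 sites (69.8%) kept both factors, 242 (17.2%) kept PQM-1 and not CEH-60, 8.45% kept CEH-60 and not PQM-1, and 64 (4.54%) kept neither. Those that kept CEH-60 alone had a median fold of 11.996 in CEH-60 replicate 1, 6.17 in UNC-62 and 2.38 in PQM-1 of OP201. The 242 had 8.04, 3.78 and 2.87. The 984 had 10.7, 4.64 and 3.22, and the 64 had 8.98, 4.08 and 2.24. Sites that kept only CEH-60 thus had the highest median CEH-60 and UNC-62 folds of these outcomes, and 38.7% of them lay on the X chromosome, beside 30.6% of those that kept both. The 64 sites that kept neither factor included, picked after their values were seen, the cytochrome P450 genes cyp-33E2 and cyp-33E3, which share 1 site (12.1-fold in replicate 1 and 2.61 for PQM-1), and spat-3 (11.7 and 1.99).

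Within a site the summits lay close together. The rule required the intervals of replicate 2, UNC-62 and PQM-1 to overlap, so their distances describe the choice and were not tested. Where several peaks of a list overlapped a site, that of highest fold was taken. The UNC-62 summit lay a median of 21 bp from that of CEH-60 replicate 1 (quartiles 9 and 40 bp), and 82.0% lay within 50 bp. The PQM-1 summit of OP201 lay a median of 31 bp away (14 and 70 bp), with 67.3% within 50 bp and 122 sites beyond 500 bp. The CEH-60 summits of replicate 2, mIgG1, DLS396 and DLS435 lay 26, 18, 13 and 28 bp away. The distance of PQM-1 was thus near that of CEH-60 replicate 2, which shares its protocol, and all of replicate 2, UNC-62 and PQM-1 lay within 50 bp at 713 sites (50.6%). Where replicate 2 intervals and summits took the place of replicate 1, which gave 1492 sites, the UNC-62 median was 32 bp.

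At the 1226 sites that kept PQM-1, its summit lay a median of 30 bp from the CEH-60 summit in OP201 and 38 bp in DLS422. It lay farther in DLS422 at 665 sites, nearer at 535 and equally far at 26. At the 1030 sites lacking UNC-62 that kept PQM-1, the medians were 33 and 36 bp, with 532 farther and 471 nearer. At the repressor gene mab-3 (II:9738456-9741957), where the CEH-60 interval holds several UNC-62 and PQM-1 peaks, the UNC-62 summit of highest fold lay 2599 bp and that of PQM-1 1757 bp from the CEH-60 summit. Peaks of slightly lower fold lay by that summit as well, UNC-62 with 10.5 at -2 bp and PQM-1 of OP201 with 2.60 at 20 bp.

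**Figure D4:**
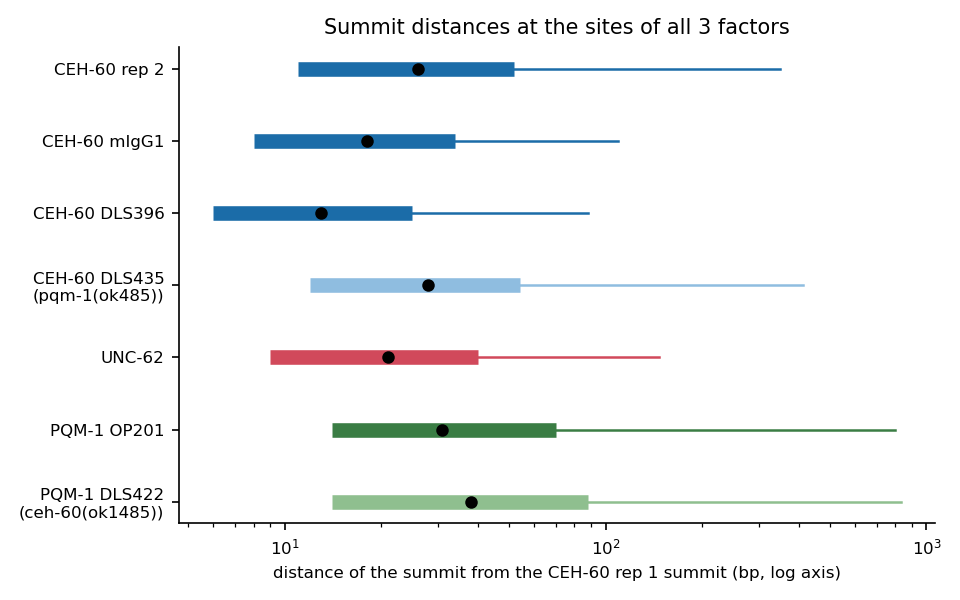
Distance of each list's summit from the CEH-60 replicate 1 summit at the sites (bp, log axis). Dots are medians (13 bp for CEH-60 in DLS396 to 38 bp for PQM-1 in DLS422), thick bars run from the first to the third quartile and thin lines to the 95th percentile.

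Folds of CEH-60 and UNC-62 varied together over the sites, and those of CEH-60 and PQM-1 did so less. Spearman's rho between CEH-60 replicate 1 and UNC-62 was 0.80 over 1409 sites, and 0.84 between CEH-60 and UNC-62 in DLS396, where both came from 1 strain and protocol 1. It was 0.91 between replicate 1 and CEH-60 in DLS396, 0.88 between replicate 1 and mIgG1 over 1376 sites, and 0.60 between replicates 1 and 2, which differ in protocol. Between PQM-1 of OP201 and CEH-60 it was 0.08 for replicate 1 and 0.37 for replicate 2, the latter of the same protocol 2. PQM-1 in OP201 and DLS422 had 0.72 over the 1226 sites that kept it, and CEH-60 in replicate 2 and DLS435 had 0.74 over 1103. These are descriptions over sites that were chosen on the same peaks.

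The sites were spread over all chromosomes and were densest on X. There were 417 on X (29.6%, 27.3 to 32.0) beside 23.7% of other CEH-60 replicate 1 peaks (22.8 to 24.7), which makes 23.5 sites per Mb against 9.55 on chromosome I to 13.5 on V. The share on X was not particular to sites with both partners, since it was 27.8% at those lacking UNC-62 and 32.2% (27.1 to 37.7) at those with neither. Among the 180 sites that shared 50% of both intervals with each partner it was 15.6%. A DLS435 peak met that same 50% rule at 46.7% of those sites, which is a stricter measure than the 1 bp used elsewhere. Summits lay outside protein-coding genes at 63.4% of the sites (60.9 to 65.9), beside 61.2% at those lacking UNC-62, 51.1% at those lacking PQM-1 and 37.6% at those with neither. Few lay within 200 bp of a tRNA gene, 6 sites or 0.43% (0.20 to 0.93), beside 1.22% of other CEH-60 replicate 1 peaks (1.0001 to 1.497).

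A gene counted as bound if it had a summit within 1000 bp outside, or 200 bp inside, of an end. By that rule 704 sites (49.97%) lay at a gene, 471 of them at 1 gene and 233 at more, and 929 genes were bound, 28 of them at 2 sites. A site at several genes counted for each, and often only the gene under discussion is named here. Such shared sites include those of mab-3 with pno-1, pmk-1 with faah-2, zip-2 with ceeh-1, xbp-1 with dnj-16, nhr-8 with mrps-24 and acdh-1 with C55B7.3. The remaining sites lay farther from gene ends, 334 between genes and 371 inside one. The strongest of these, picked after their values were seen, included sites inside tra-1, a regulator of sexual fate (III:11188018-11188616, 18.7-fold in replicate 1), and inside ugt-6 (V:12796510-12797725, 19.1-fold). The tra-1 site had a PQM-1 fold of 2.02 in OP201 and no peak in DLS422, and the ugt-6 site had 3.80 and 2.67.

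Sites also lay in groups. With neighbours joined at gaps of up to 5 kb, 567 sites lay in groups of 2 or more and 842 lay singly. The largest group held 7 sites along 21.7 kb at egl-27, an MTA-like chromatin factor (II:6821748-6843402), with replicate 1 folds of 7.04 to 12.3 and both factors kept at all 7. A group of 6 on chromosome I (I:5025006-5037926), with no gene bound, also kept both factors at each site. The group of 5 at the desaturase genes fat-1 and fat-2 (IV:13313052-13327591) kept PQM-1 at all 5 and lacked CEH-60 in DLS435 at fat-1. In the group of 5 at rgs-7 and vit-4 (X:3550764-3565263), PQM-1 was kept at every site but that of vit-4.

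By gene function, the share of genes bound ran from all vitellogenins to none of several lists. Over all 19971 protein-coding genes 4.65% were bound, and of the 5030 genes at a CEH-60 replicate 1 peak 18.5% were bound by a site of all 3 factors. The lists were drawn up with earlier results on these peaks known, and they overlap, so the counts describe and do not test. The vitellogenins were bound at 6 of 6 genes. Of 12 intestine markers 6 were bound: elt-2, the main GATA factor of the intestine, cpr-6, pept-1, a peptide transporter, vha-6, act-5 and end-1. The vha-6 site also lay at VW02B12L.2 and the end-1 site also at ric-7. At elt-2 (X:10480275-10481280) the fold was 13.9 in replicate 1, 2.80 in replicate 2, 7.85 with mIgG1, 18.8 in DLS396 and 4.47 in the UNC-62 list, with PQM-1 at 2.97 in OP201 and 3.21 in DLS422 and 2.82 for CEH-60 in DLS435. It was thus present in all 8 lists, and the other 5 bound markers kept both factors as well, beside 69.8% of all sites. No gene of the neuron (0 of 16), germline (0 of 16) or hypodermis (0 of 10) markers was bound. The upper Wilson bounds of these shares were 19.4, 19.4 and 27.8%, above the 4.65% of all genes. Only 2, 2 and 1 of these genes lay at any CEH-60 replicate 1 peak. Of 12 body muscle markers 1 was bound, unc-60. Of 7 pharynx markers 2 were bound, pha-2 and the FoxA factor pha-4. Neither kept PQM-1 in DLS422, beside 10.3% of all 929 bound genes with no site that did. Their OP201 folds of 2.96 and 2.22 lay below the sites' median of 3.03.

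Of 16 regulators of yolk production and uptake 6 were bound (37.5%, 18.5 to 61.4, beside 4.65% of all genes). They were ceh-60, mab-3, elt-2, daf-16, zip-2 and unc-62, and all 6 kept PQM-1. At unc-62 the UNC-62 peak was the one 32132 bp wide from the strain with the added unc-62 transgene. At mab-3, the DM-domain regulator that holds yolk genes off in males, replicate 1 had 18.1-fold, UNC-62 11.4, PQM-1 2.66 in OP201 and 2.59 in DLS422, and CEH-60 in DLS435 2.83. At daf-16, the FoxO factor of insulin signalling (I:10777228-10777787), these values were 7.56, 2.84, 3.37 and 2.88, with no peak in DLS435. The 6 regulators with a kept site lie near the share of all bound genes, since 89.7% of the 929 (833 genes) had a site with a DLS422 peak.

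Genes that make fatty acids were bound more often than genes that break them down. Of 28 synthesis genes 10 were bound (35.7%, 20.7 to 54.2, beside 4.65% of all genes). That was 50% (29.9 to 70.1) of the 20 at any CEH-60 replicate 1 peak. Of 37 oxidation genes 2 were bound (5.41%), near the 4.65% of all genes. That was 8% (2.22 to 24.97) of the 25 at such a peak. This interval includes the 18.5% of all genes at such a peak, and that of the synthesis genes lies above it. The oxidation genes were thus near the background, and the synthesis genes were above it. At fat-2 (IV:13326921-13327591) the fold was 17.9 in replicate 1, 3.75 in replicate 2, 14.4 with mIgG1, 25.98 in DLS396 and 11.1 in the UNC-62 list, with PQM-1 at 2.86 in OP201 and 2.83 in DLS422 and 3.10 for CEH-60 in DLS435. It was present in all 8 lists, with CEH-60 replicate 1 rank 23. The others named by the rule were acs-1, an acyl-CoA synthetase (14.6-fold in replicate 1), dgat-2, a diacylglycerol acyltransferase (13.9), fat-1 (9.71), and the elongases elo-5 (9.19) and elo-6 (8.24). All 10 kept PQM-1 at a site in DLS422, beside 89.7% of all bound genes. The 2 oxidation genes were nhr-68 (9.29), a regulator of propionate breakdown, and acdh-1 (7.94), an acyl-CoA dehydrogenase. Of 20 lipases 1 was bound, lipl-5 (10.5), where 10 were at any replicate 1 peak.

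Of 43 immune effectors 14 were bound. The lysozyme gene lys-8 (II:5585622-5586218) had folds of 14.2 in replicate 1, 3.70 in replicate 2, 6.97 for UNC-62, with PQM-1 at 4.15 in OP201 and 4.05 in DLS422, and 2.42 for CEH-60 in DLS435. thn-2, a thaumatin-like protein (IV:12382686-12383289), had 13.3 in replicate 1 and 2.37 for PQM-1 in OP201. It was the only one of the 14 with no site that kept PQM-1, beside 10.3% of all bound genes. irg-2, spp-5, ilys-5 and lys-1 had 11.9 to 12.5 in replicate 1. Of 16 regulators of the p38 pathway and immunity 6 were bound, among them nipi-3 (11.4), the receptor gene fshr-1 (10.6), nsy-1 (9.28) and the p38 kinase gene pmk-1 (7.44). nsy-1 was the one of these 6 with no PQM-1 peak in DLS422, beside the same 10.3% of all bound genes. Of 21 stress defence effectors none was bound (upper Wilson bound 15.5%, beside 4.65% of all genes) and 6 lay at other CEH-60 replicate 1 peaks. Of 18 stress and longevity factors 7 were bound, among them nhr-8 (13.7), zip-10 (10.5) and xbp-1 (8.48).

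Among gene families, UDP-glucuronosyltransferases, which conjugate small molecules, had 15 of 67 genes bound, led by ugt-43 (15.9-fold in replicate 1). Transthyretin-like genes had 9 of 58, ABC transporters 5 of 31 and cathepsin B-like proteases 4 of 8, led by cpr-3 (13.8). Nuclear hormone receptors had 14 of 269, near the share of all genes, and 106 lay at any replicate 1 peak, so that 13.2% (8.03 to 20.955) of those had all 3 factors. Cytochrome P450 genes had 6 of 74, C-type lectins 13 of 239, collagens 6 of 156 and ribosomal protein genes 3 of 78. Chemoreceptor genes had 19 of 1173 (1.62%) and F-box genes 8 of 328 (2.44%), against the 4.65% of all genes. Of the 8 F-box genes, 3 had no site that kept PQM-1, among them fbxl-5, beside 10.3% of all bound genes.

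**Figure D5:**
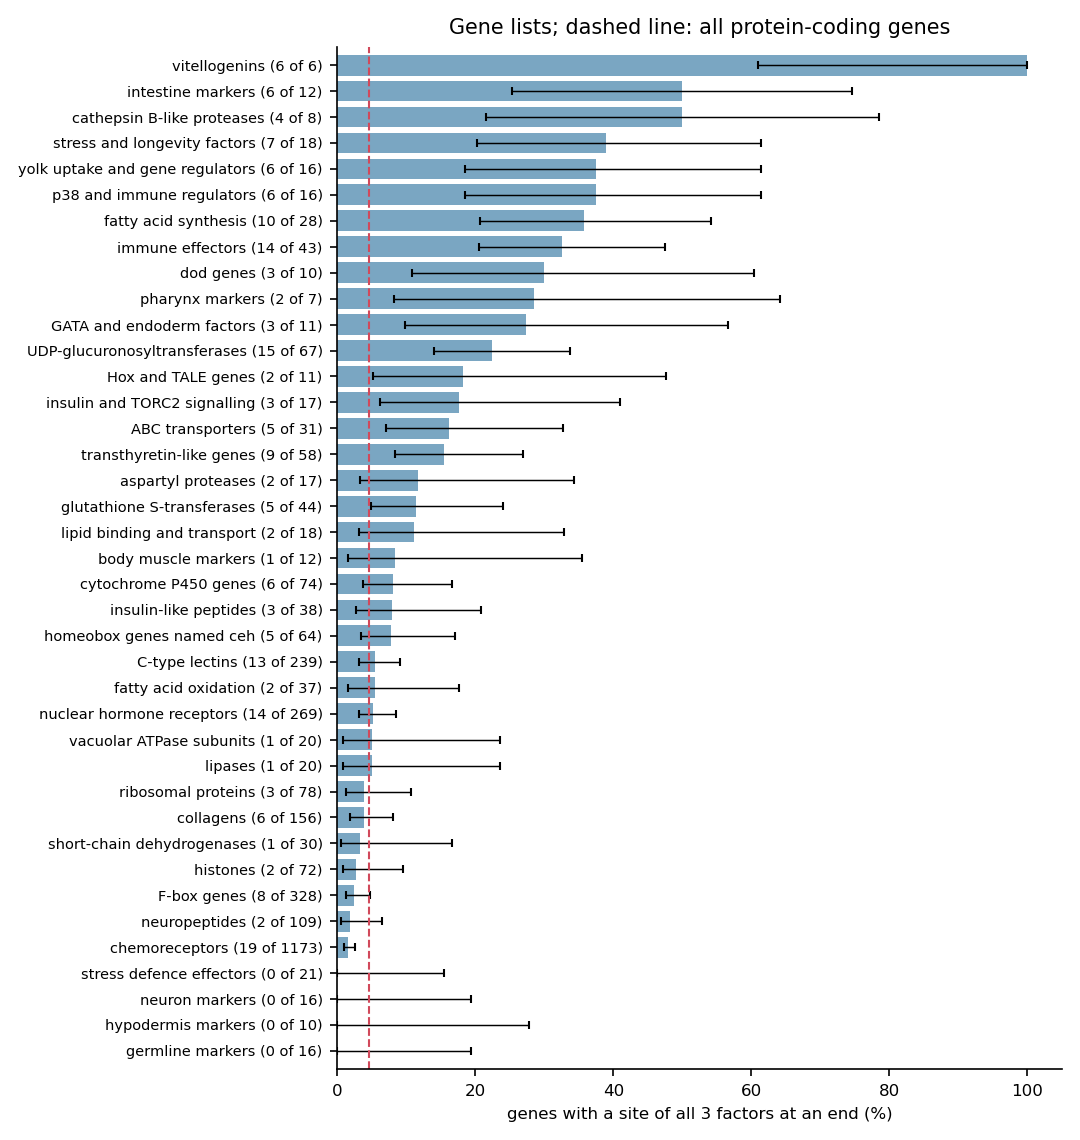
Share of the genes of each list with a site of all 3 factors at an end (%, horizontal axis), with bound and matched genes in brackets and 95% Wilson intervals as lines. The dashed line marks 4.65%, the share of all protein-coding genes; vitellogenins stand at 6 of 6 genes and chemoreceptors at 19 of 1173.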

How the data were processed

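Peak lists of 8 immunoprecipitated samples were used as deposited, 1 list per sample, and the 2 input samples were not analysed here. Per the submitters' processing notes the authors used Bowtie2, SAMtools, MACS2 and deepTools, without versions. Not given in the sources used here are the genome build, the control of each peak call and where reads with several matches were put. For each peak the deposited lists hold a score, a fold (a ratio of summit signal to local background), a −log10 p-value, a −log10 q-value (lowest 2.00) and the summit. Only the fold, the −log10 q and the positions were used. Coordinates are 1-based.

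Overlaps, distances and shares were computed in Python 3.11.15 (scipy 1.17.1, pandas 2.3.3, numpy 2.4.6; figures in matplotlib 3.10.9), with code tested on simulated data. Only CEH-60 with 3F10 in DLS395 had more than 1 library, so no p-values are given. Read depth is unknown. Wilson intervals of shares, and Newcombe intervals of their differences, are at 95% and cover counting error over sites only. The closing section gives the effect of 8 other settings.

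Gene names came from a table of assembly WBcel235 without strand or exons, so gene ends took the place of promoters. Sites and gene ends met best at a shift of 0 bp. Of 339 entries of 19 gene lists, 335 matched, and 20 families were taken by symbol. A motif search had been planned and was left out, as genome sequence was not used here.

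The sites, lists and rules were chosen with earlier results of these data known. Named, from sites with a bound gene and passing over stronger ones without, are the 10 strongest by CEH-60 replicate 1 fold, up to 6 bound genes per list, the yolk genes, the genes of the 3 factors, the 8 sites of highest PQM-1 fold with and without a DLS422 peak, the 8 of highest replicate 2 fold without a DLS435 peak, and 5 sites on each side of the overlap limit. Some are left out for length, and genes outside this rule are said to be picked after their values were seen or lie next to a named gene.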

Additional observations from a re-analysis of the deposited data

How the results depend on the processing

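Of 85 values under other settings, 65 stayed within the counting error or within 1.5 times of the reported value and 20 moved; the cause was not tested. The DLS422 difference from sites lacking UNC-62, whose interval included 0, changed sign without replicate 2, and no difference whose interval excluded 0 did. With 50% of both intervals shared, 180 sites were left and 0.596% of protein-coding genes were bound, with shares of 74.4% (PQM-1 in DLS422), 46.7% (CEH-60 in DLS435), 87.2% (mIgG1), 97.2% (CEH-60 in DLS396), 15.6% (X) and 58.9% (outside protein-coding genes), and a PQM-1 summit distance of 26.5 bp. With summits within 200 bp, 81.7% of sites kept PQM-1 in DLS422, 98.3% had CEH-60 in DLS396, the PQM-1 distance was 26 bp and the DLS435 difference from sites lacking PQM-1 was 19.4 points. Both of these settings also applied to the lists outside the choice. A peak counted there only by the same match, so these shares are not on the measure of the main ones. With −log10 q of 5 or more, the DLS422 difference from sites lacking UNC-62 was -3.56 points (-6.30 to -0.76). Leaving out replicate 1 or 2 in turn gave 83.4 to 85.9% (PQM-1 in DLS422), 69.8 to 77.8% (CEH-60 in DLS435), 96.2 to 96.9% (mIgG1), 22 to 32 bp (UNC-62 distance), -0.43 to 12.1 points (DLS422 difference) and 32.2 to 43.4 points (DLS435 difference). No paired analysis was possible because the result comes from no test and 1 group alone had replicates.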
